A study of Mus musculus with 19 samples.

Results

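Mouse Chr18 was examined by array comparative genomic hybridization (aCGH) in 10 liver tumors and in the unaffected liver of the 9 mice that carried them. Every array probe placed on Chr18 of mouse build mm9 (NCBI37) was included, which gave 7957 of the 233412 probes placed on a chromosome. They ran from chr18:3181133-90762649, with a median distance of 8.23 kb between neighbours and a longest gap of 251 kb. The aCGH ratio is the log2 ratio of sample DNA to control DNA, so that 0 stands for the copy number of the median autosomal probe. The ratio of Chr18 is the mean over its probes, and its profile is the mean in each of 19 bins of 5 Mb.

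The 4 hepatocellular adenomas (HCAs) came from female mice of genotype Mad2(f/f) with either p53(f/f), mice 2430 and 6199, or p53(f/+), mice 5884 and 5901. The 6 hepatocellular carcinomas (HCCs) came from 5 mice of genotype Mad2(f/f) p53ser246+, with tumors 6240-4 and 6240-2 from a single female, tumor 6602 from another female, and tumors 6487, 6565 and 6642 from males. The HCA mice were 16.9 (2430), 14.2 (5884) and 12 months of age (5901 and 6199), and the HCC mice were 16.2 (6240), 12.8 (6487), 14.7 (6565), 13.2 (6602) and 12.3 months of age (6642). The strain labels name Mad2flox, p53flox and AlbuminCre for the HCA mice and Mad2flox, p53ser249 and AlbuminCre for the HCC mice, so that the p53 allele of the latter reads p53ser249 in the strain and p53ser246+ in the genotype. AlbuminCre recombines floxed alleles in developing hepatocytes, and liver samples also hold other cell types. The labels give all of these mice and the controls the same background strain. The study calls the background of its mice mixed, and it treats some aCGH candidates as artifacts of that mixture. Tumor type therefore went together with p53 genotype, and these factors cannot be told apart. All 9 mice were Mad2(f/f), and recombination at Mad2 was not analysed here. The control DNA was wild-type liver of the opposite sex. A ratio averages over all cells of a sample, so a gain in some cells and a smaller gain in all cells cannot be told apart.

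Mad2 is a spindle assembly checkpoint protein that holds back anaphase until every chromosome is attached to the spindle. Cells without it segregate chromosomes with errors, and these errors usually change whole chromosomes rather than parts of them. A gain that runs evenly from end to end is the pattern of a missegregated chromosome, whereas a step within a chromosome requires a DNA break. Chr18 of the mouse is telocentric, with the centromere at the end where coordinates begin, so its whole length is a single arm. The RefSeq annotation of build GRCm38.p6 places 511 protein-coding genes on it, some of which bear on cell division and growth. From the centromere outward, these include the kinase genes Map3k8 and Rock1, the cohesin acetyltransferase Esco1, the liver secretory protein Ttr, the anticoagulant Proc and the tumor suppressor Apc. These are followed by Cdc23, a subunit of the anaphase-promoting complex that Mad2 restrains, the phosphatase Cdc25c, the growth factors Hbegf and Fgf1, and the receptor genes Pdgfrb and Csf1r. Toward the distal end lie the phospholipid flippase gene Atp8b1, the centrosome gene Cep192, the receptor gene Dcc, the TGF-beta signal carrier Smad4, the kinetochore gene Ska1, the TGF-beta inhibitor Smad7 and the signal carrier Smad2. The array files pair no probe with a gene and this annotation uses another build, so Chr18 was measured as a chromosome and copy numbers of single genes were not analysed here.

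Between 7943 and 7957 of its probes were measured per array, and 99.2% to 99.9% of its spots were well above background in both channels. The Cy5 signal of the other autosomes, which carried the sample DNA, lay 1.84 to 4.89 times above its local background, and the noise between neighbouring Chr18 probes was 0.18 to 0.40 on the log2 scale. Because the control was of the opposite sex, the X chromosome gave a built-in scale of a copy-number change of 2-fold, expected at 1 or −1. In the 9 unaffected livers the size of the X ratio was 0.885 to 1.04, with the sign of the labelled sex in all 19 samples. In the tumors it was 0.73 to 1.07, except in HCC 6240-2, with an X ratio of 0.32 against 1.04 in its own liver. On this scale a gain of 1 copy in every cell would read 0.58.

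Chr18 lay above the mean of unaffected liver in every HCA and in 4 of 6 HCCs. In the HCAs the Chr18 ratio was 0.30 in mouse 2430, 0.20 in mouse 5884, 0.27 in mouse 5901 and 0.18 in mouse 6199. In the HCCs it was −0.016 in 6240-4, 0.70 in 6240-2, 0.21 in 6487, −0.0040 in 6565, 0.16 in 6602 and 0.32 in 6642. The HCAs thus formed a narrow group, whereas the HCCs ranged from no gain to the highest value of all samples. The unaffected livers ranged from 0.0068 to 0.20 with a median of 0.032, and the highest of them was that of mouse 6240. All 9 livers were above 0, and in 5 of them Chr18 was the highest autosome. HCAs 2430 and 5901 lay above every liver, and the other 2 HCAs lay below the liver of mouse 6240 and above the remaining 8. The cut-off of 0.3 that the study used for whole-chromosome events was passed by 3 of 10 tumors (HCA 2430, HCC 6240-2 and HCC 6642) and by no liver. With cut-offs of 0.2 and 0.4, chosen after the data were seen, 6 tumors and 1 tumor passed, with 1 liver (mouse 6240) past 0.2 and none past 0.4.

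**Figure D1:**
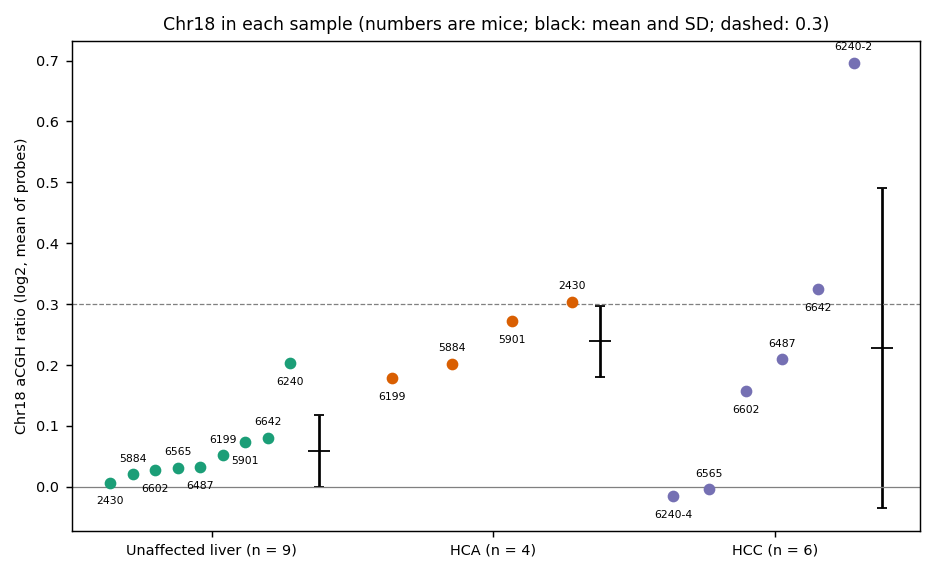
The Chr18 aCGH ratio (log2, y axis) of each unaffected liver, HCA and HCC, labelled with the number of the mouse. Black marks give the group mean and SD, and the dashed line the cut-off of 0.3. The HCAs sit between 0.18 and 0.30, while the HCCs spread from −0.016 to 0.70.

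The mean Chr18 ratio was 0.239 ± 0.058 in HCA (SD, n = 4), 0.228 ± 0.263 in HCC (n = 6) and 0.059 ± 0.059 in unaffected liver (n = 9). The HCAs exceeded the livers by 0.181, and this difference passed an exact two-sided permutation test (p = 0.00420, adjusted p = 0.00886 over the 19 autosomes). The background was high, since 78.9% of the autosomes passed the same test. With the mouse as a block the difference was 0.201, but the adjusted p of limma was 0.156. In limma without a block the adjusted p was 0.0695. Both limma fits included the HCCs, so that HCA, HCC and liver shared the estimate of the spread. The HCCs exceeded the livers by 0.169, which did not pass after adjustment (exact permutation test, p = 0.0484, adjusted p = 0.0957), where 31.6% of the autosomes did. Averaging the HCCs of mouse 6240 gave 0.147 with an adjusted p of 0.0295 in the same exact permutation test. Leaving out HCC 6240-4, HCC 6565 or the liver of mouse 6240 also brought the adjusted p below 0.05, to 0.0427, 0.0393 and 0.0485 by the same exact permutation test. Without HCC 6240-2 the difference was 0.0757, with an adjusted p of 0.277 in that exact permutation test.

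The means of HCC and HCA were close, which rested on HCC 6240-2, and the HCC median was 0.183 against 0.237 in HCA. HCC minus HCA was −0.011 (adjusted p = 0.967 by exact permutation), and the limma interval of 95% ran from −0.20 to 0.18. Without HCC 6240-2 the difference was −0.105 (adjusted p = 0.536 by exact permutation). Of the autosomes, 10.5% passed in this comparison. The HCCs lay farther from their own median than the HCAs did. The absolute deviations averaged 0.182 ± 0.179 in HCC (SD, n = 6) and 0.049 ± 0.016 in HCA (n = 4), a difference of 0.133 that did not pass (exact permutation test, p = 0.167, adjusted p = 0.864).

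Each tumor was then set against the unaffected liver of its own mouse, which removes what tumor and liver share. In the HCAs, Chr18 minus own liver was 0.30 (2430), 0.18 (5884), 0.20 (5901) and 0.13 (6199). In the HCCs it was −0.22 (6240-4), 0.49 (6240-2), 0.18 (6487), −0.035 (6565), 0.13 (6602) and 0.24 (6642). The direction was upward in 8 of 10 tumors, and both exceptions were HCCs. With the HCCs of mouse 6240 averaged, the mean over 9 mice was 0.162 ± 0.093 (SD), higher in 8 of 9. This paired comparison, added after the data were seen, passed an exact sign-flip test (p = 0.00781, adjusted p = 0.0212), as did 47.4% of the autosomes. Neither tumor type alone can pass such a test. The sign-flip test allows no p below 0.125 with the 4 mice with HCA, and none below 0.0625 with the 5 mice with HCC.

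The gain could also be read from single probes. Between 69.9% and 84.7% of the Chr18 probes had a higher ratio in the HCA than in the own liver. Among HCCs this share was 95.2% in 6240-2, 87.9% in 6642, 76.5% in 6487 and 68.3% in 6602, and it was 46.4% in 6565 and 29.1% in 6240-4. Neighbouring probes share their DNA segment, so these shares describe single tumors and are not replicates.

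Neither p53 genotype among HCAs nor sex among HCCs separated the Chr18 values. The HCAs with p53(f/f) had 0.18 and 0.30, and those with p53(f/+) had 0.20 and 0.27. The female HCCs ranged from −0.016 to 0.70 and the male HCCs from −0.0040 to 0.32. These subgroups of 2 and 3 samples were not tested. Age did not correlate detectably with the difference between tumor and own liver over 9 mice (Pearson's r = 0.049, p = 0.900; Spearman's rho = 0.059, p = 0.886; exact permutation tests, adjusted p = 0.900 and 0.886 over 3 relations). Without the 2 mice farthest from the median age, r was −0.654 (exact permutation p = 0.0996), so that the pooled value rests on those mice. The arrays were scanned on 3 days, which held different groups. Within the day of HCAs 2430 and 5884 the HCAs exceeded the livers by 0.220, and within the day of HCAs 5901 and 6199 by 0.183. HCC exceeded liver by 0.167 within the day that held a single HCC, and by 0.146 within the day of the other 5.

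Along the chromosome the gain was broad. Averaged over the 10 tumors, the difference from own liver was positive in all 19 bins, with a median of 0.159 and a range of 0.069 to 0.185. The SD of these bin means, each averaged over the 10 tumors, was 0.024. The median SD between single tumors within a bin was 0.193. Within single tumors, the SD over bins of the difference from own liver was 0.013 to 0.105 in HCAs and 0.022 to 0.078 in HCCs. It was highest in HCA 5884 and HCC 6602. The 5 highest bins were chr18:3181133-5000000 (0.185), chr18:25000001-30000000 (0.181), chr18:10000001-15000000 (0.172), chr18:5000001-10000000 (0.169) and chr18:80000001-85000000 (0.167). The 5 lowest were chr18:90000001-90762649 (0.069), chr18:85000001-90000000 (0.137), chr18:50000001-55000000 (0.148), chr18:30000001-35000000 (0.148) and chr18:55000001-60000000 (0.157). Only the terminal bin stood clearly lower, and it held 61 probes over its short length, whereas the others held 189 to 666. In 5 tumors (HCA 2430, HCA 5901, HCA 6199, HCC 6240-2 and HCC 6642) all 19 bins were above the own liver, and in HCC 6240-4 none was.

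**Figure D2:**
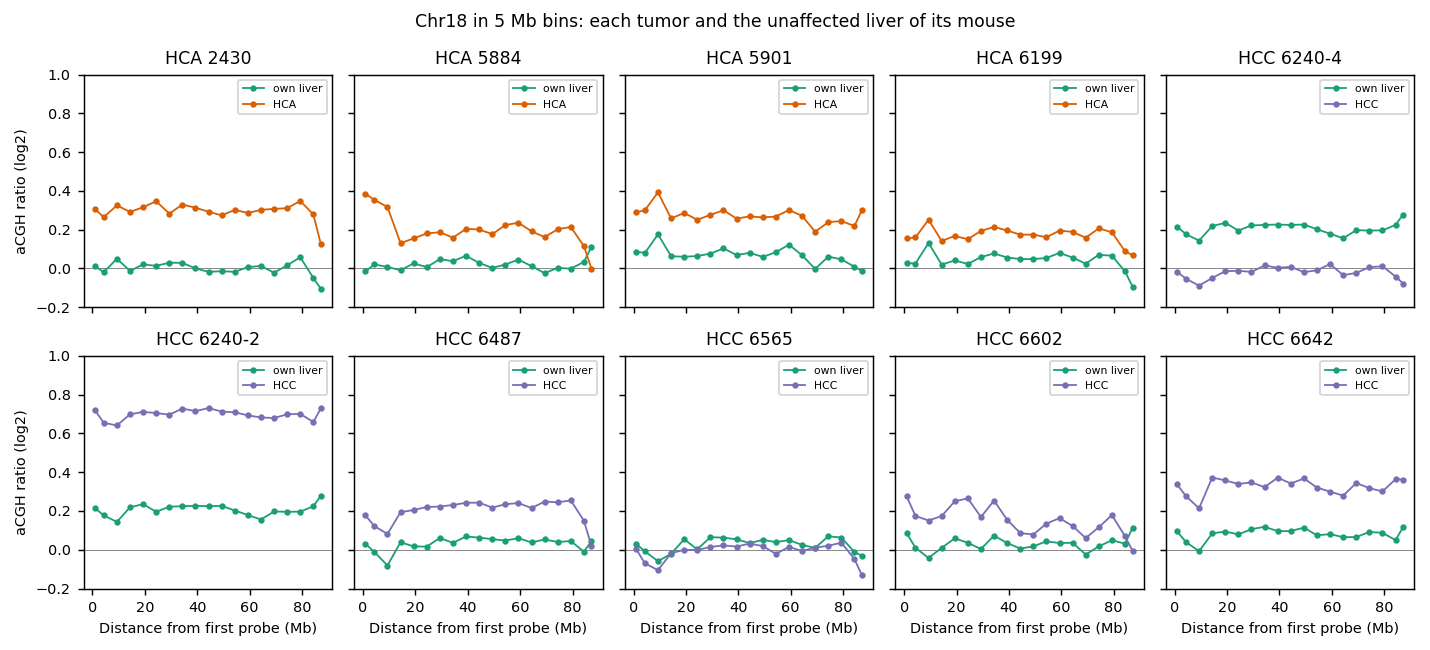
The aCGH ratio (log2, y axis) of Chr18 in 5 Mb bins against the distance from the first probe (Mb, x axis), with each tumor beside the unaffected liver of its mouse. Most tumor profiles run parallel to the liver. HCA 5884 begins at 0.39 and drops, and HCC 6240-2 stays between 0.64 and 0.73 throughout.

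Single bins were tested in a fit over all 502 autosomal bins, in which HCA, HCC and liver shared an estimate of the spread. In HCA against liver 3 of 19 Chr18 bins were called (limma, adjusted p below 0.05), all of them higher, against 18.7% of all bins called higher and 46.0% called in either direction. These were the first 3 bins of the chromosome, with differences of 0.22 ± 0.09 (SE, adjusted p = 0.0447), 0.23 ± 0.09 (adjusted p = 0.0291) and 0.29 ± 0.09 (adjusted p = 0.0128). The median difference was 0.174 over Chr18 bins and 0.023 over all bins. An exact permutation test in each bin, which uses HCAs and livers alone, called 18 of 19, against 65.3% of all bins. Limma on HCAs and livers alone, added after the data were seen, also called 18. The fit over HCA, HCC and liver with the mouse as a block called 0 of 19. Leaving out HCA 2430, HCA 5884 or HCA 5901 left 1 bin called. Against its own liver, HCA 5884 was at 0.40 and 0.33 in the first 2 bins. The other HCAs were there at 0.29 and 0.28 (2430), 0.20 and 0.22 (5901), and 0.13 and 0.13 (6199). In chr18:10000001-15000000 the HCAs exceeded their own livers by 0.12 to 0.31.

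In HCC against liver 1 of 19 bins was called higher (chr18:25000001-30000000, 0.20 ± 0.07, limma adjusted p = 0.0473), against 4.58% of all bins called higher and 24.7% in either direction. Blocking on mouse ended this call, as did blocking on scan day (0 of 19 in limma each time). A further 15 bins had an unadjusted p below 0.05, which made 16 in all. The exact permutation test called 0 of 19 bins, against 26.7% of all bins. The count rose to 15 without HCC 6240-4 and to 17 without HCC 6565, the tumors without a gain, and to 15 with the HCCs of mouse 6240 averaged. It fell to 0 without HCC 6240-2, HCC 6487, HCC 6642 or any liver other than that of mouse 6240. HCC against HCA gave 0 of 19 bins in limma, 0 at an unadjusted p below 0.05 and 0 in the exact permutation test, against 21.1% and 0.0% of all bins in those tests.

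**Figure D3:**
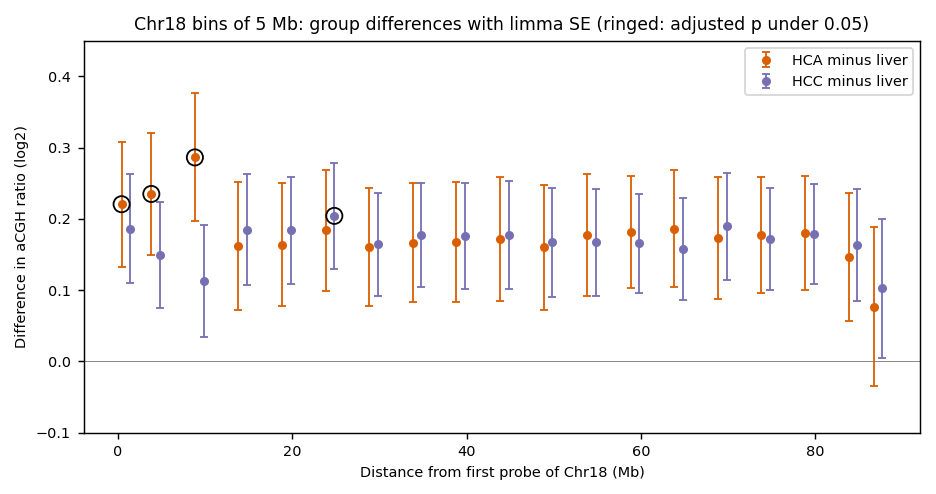
Difference in aCGH ratio (log2, y axis) between HCA or HCC and unaffected liver in each Chr18 bin, against the distance from the first probe (Mb, x axis). Points are limma estimates with their SE, and rings mark adjusted p below 0.05. HCA estimates are highest in the first 3 bins, at 0.22 to 0.29, and HCC estimates stay between 0.10 and 0.20. In the first 2 bins, HCA 5884 exceeded its own liver by 0.40 and 0.33, and the other HCAs by 0.13 to 0.29.

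Evenness was measured as the SD over the 19 bins of a sample, which is small when a chromosome changes as a whole. It was 0.030 to 0.045 in the livers. Among HCAs it was 0.047 (2430), 0.086 (5884), 0.041 (5901) and 0.042 (6199), and among HCCs 0.031 (6240-4), 0.025 (6240-2), 0.063 (6487), 0.046 (6565), 0.076 (6602) and 0.041 (6642). The tumor with the highest Chr18 ratio, HCC 6240-2, had the most even profile of all 19 samples, and HCA 5884 the least even. HCAs exceeded livers by 0.018 (exact permutation test, p = 0.00839, adjusted p = 0.0797) and HCCs exceeded livers by 0.011 (p = 0.128, adjusted p = 0.487). HCC minus HCA was −0.0069 (exact permutation test, p = 0.600, adjusted p = 0.947). No autosome passed in any of these comparisons. Without the liver of mouse 2430 the adjusted p for HCA was 0.0461, and without HCA 5884 the difference was 0.0071.

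Chr18 was also split at its middle probe into a proximal and a distal part, and their levels were close. Distal minus proximal was −0.023 ± 0.013 in HCA (SD, n = 4), −0.0060 ± 0.042 in HCC (n = 6) and −0.0057 ± 0.015 in liver (n = 9). HCA minus liver was −0.018 (exact permutation test, p = 0.0727, adjusted p = 0.531) and HCC minus liver −0.00034 (p = 0.988, adjusted p = 0.988). The HCC mean includes a single low tumor, HCC 6602, with a difference of −0.088. Without it HCC minus liver was 0.016.

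HCA 5884 had the only step within Chr18 that met the rule, namely segments of at least 5 windows of 1 Mb whose means differ by at least 0.2. From chr18:3181133-13000000 its 10 windows exceeded the own liver by 0.36 ± 0.048 (SD), with every window between 0.29 and 0.42. From chr18:13000001-90762649 the 78 windows averaged 0.16 ± 0.065. Against the mean of the other 8 livers in place of its own, these values were 0.33 and 0.12 with the step at the same place. None of the 36 pairs of unaffected livers had such a step. With a step of 0.1 in place of 0.2, HCA 5884 remained the only tumor with a break against its own liver, where it gained a second one at chr18:85000001, but 7 of the 36 liver pairs had one too. Against the other livers, a step of 0.1 also gave breaks in HCA 5901 (3 segments) and HCC 6487 (2 segments). With 1 array of this tumor there was no replicate check.

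HCC 6602 had a shallower pattern below that rule, in stretches chosen after the data were seen. Its first 8 bins, chr18:3181133-40000000, exceeded its own liver by 0.185 ± 0.022 (SD), and the other 11 bins by 0.073 ± 0.069. Both stretches were higher than the liver in every bin except the terminal one, at −0.12. The terminal bin was also below the own liver in HCA 5884 (−0.11), HCC 6240-4 (−0.36), HCC 6565 (−0.10) and HCC 6487 (−0.024). It was above the own liver in the other 5 tumors, and its range over the livers, 0.38, was the widest of the Chr18 bins. In HCA 5884 and HCC 6602 this bin was at −0.00025 and −0.0061 in the tumor, and at 0.11 in each own liver.

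**Figure D4:**
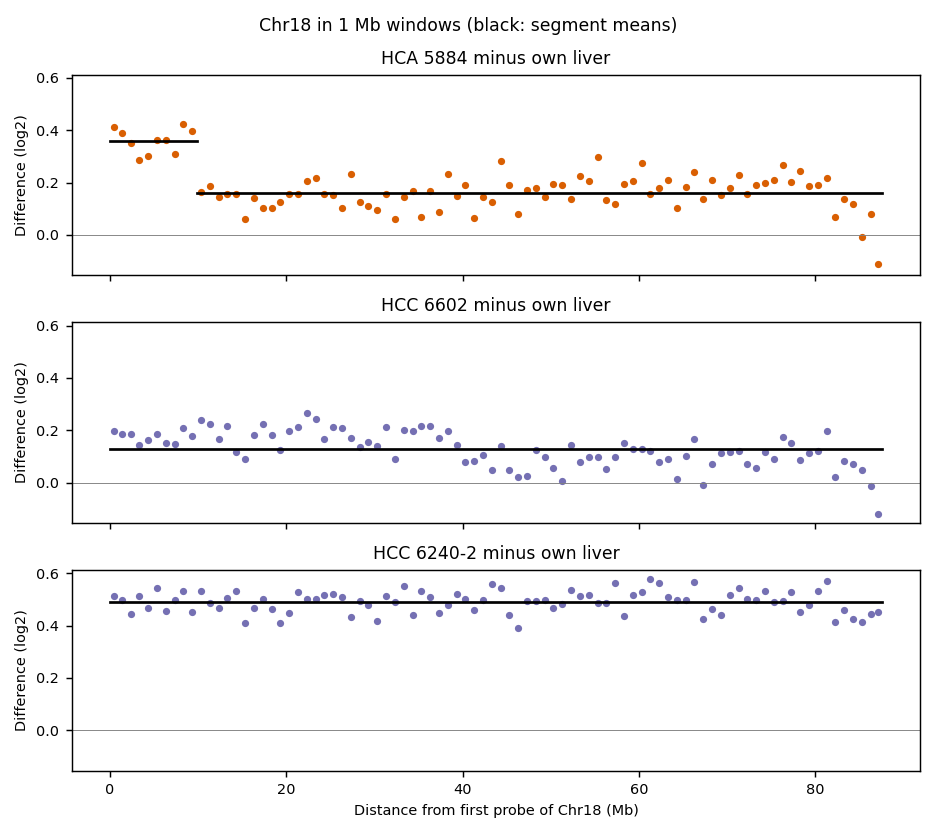
Difference in aCGH ratio (log2, y axis) between tumor and own liver in the 88 windows of 1 Mb, against the distance from the first probe (Mb, x axis), for HCA 5884, HCC 6602 and HCC 6240-2. Black lines are segment means. HCA 5884 steps from 0.36 to 0.16, HCC 6602 declines without a called step, and HCC 6240-2 stays level near 0.49.

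The carcinomas of mouse 6240 differed from each other on Chr18 more than any tumor did from its own liver. The ratio was 0.70 in tumor 6240-2, −0.016 in tumor 6240-4 and 0.20 in the liver of the same mouse. If the median autosome is present in 2 copies, these ratios correspond to 3.24, 1.98 and 2.30 copies per cell on average. Tumor 6240-2 exceeded tumor 6240-4 by 0.712, with an SD of 0.028 over bins and a range of 0.67 to 0.81, and it was the highest of all samples in each of the 19 bins. Among pairs of livers the size of the Chr18 difference had a median of 0.038 and reached 0.21, or 0.082 without the liver of mouse 6240. Chr18 was the autosome that differed most between the tumors, followed by Chr6 with 0.50. Besides Chr18, tumor 6240-2 passed 0.3 only on Chr6 (0.35), whereas tumor 6240-4 passed it on Chr15 (0.37) and Chr1 (0.30). With 1 array each, these tumors could not be tested against each other.

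The unaffected liver of mouse 6240 also stood apart from the other livers. It was the highest liver in 18 of the 19 Chr18 bins, with an even profile between 0.14 and 0.28. The other autosomes past 0.1 in size were Chr1 (0.17), Chr2 (0.14), Chr13 (0.13), Chr4 (−0.10), Chr8 (−0.13), Chr6 (−0.15) and Chr19 (−0.20). Its Cy5 signal was 4.81 times its background, the highest of the livers, and its Chr18 probe noise of 0.40 was the highest of all arrays. Over the 9 livers the Chr18 ratio rose with this signal (Pearson's r = 0.800, p = 0.00919, adjusted p = 0.0276; Spearman's rho = 0.667, p = 0.0589, adjusted p = 0.177; exact permutation tests). Without the 2 livers farthest from the median signal, those of mice 6240 and 6642, r was 0.076 (exact permutation p = 0.873), so that the relation rests on them. Over the tumors, averaged by mouse, r was −0.171 (p = 0.653) and rho 0.117 (p = 0.776), with adjusted p of 0.900 and 0.886 in exact permutation tests. Scan days held 2 to 4 livers, too few for a value within a day. The part of signal strength in the level of Chr18 was not tested. Without the liver of mouse 6240 the mean of the livers was 0.040 ± 0.026 (SD, n = 8).

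In some mice the profile of the tumor resembled that of the own liver. Across the 19 bins, the profiles of tumor and own liver correlated at 0.96 in mouse 6199, 0.84 in mouse 2430 and 0.75 in mouse 5901, but at −0.48 in mouse 5884. The median correlation of these HCAs with the livers of other mice was −0.18 to −0.12. In HCCs the correlation with the own liver was 0.069 to 0.84, and the median with the livers of other mice was 0.16 to 0.41. Over all 19 bins, HCC 6240-4 was more like the other livers (0.37) than its own (0.069). By the same measure, 4 of 10 tumors were most like their own liver among the 9. Without the terminal bin, HCC 6240-4 correlated at 0.43 with its own liver and at a median of 0.43 with the others. The correlations with the own liver were then 0.43 to 0.90 in HCCs and −0.16 in HCA 5884. These bins share the probes and the base composition of the array, and the correlations are given as a description. The bin chr18:10000001-15000000 is described because its values differed between these mice with HCA and mice with HCC. Relative to the mean of Chr18 in the same sample, it was −0.013 to 0.10 in the livers and 0.022 to 0.12 in the tumors of HCA mice. In HCC mice it was −0.11 to −0.060 in the livers and −0.13 to −0.0065 in the tumors. The mice with HCA and those with HCC thus did not overlap in livers or in tumors. The livers did not overlap in 1 of 19 Chr18 bins, against 2.79% of all 502 autosomal bins, and the tumors in 1 of 19, against 2.19%. Each count of 1 is near those shares. Both held in 1 Chr18 bin, against 0.598% of all bins, or 3 of 502. This bin was chosen after its values were seen, so no test was made. This bin was also the highest of the bins called in HCA against liver, a comparison in which livers of both kinds of mice entered. Tumor type and p53 allele went together here and cannot be told apart. The HCA mice were all female, and the livers of the female HCC mice 6240 and 6602 were at −0.060 and −0.070. Inherited differences between the mice were not tested. On the scan day that held livers of both kinds, this bin was 0.079 in the liver of mouse 6199 and −0.11 in that of mouse 6487.

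Chr18 was compared with Chr15 and Chr16, which the study also names as gained in these liver tumors. Over 9 mice, the gain over own liver was 0.162 ± 0.093 on Chr18 (SD), 0.268 ± 0.169 on Chr15 and 0.203 ± 0.231 on Chr16. Chr18 was lower than Chr15 in 8 of 9 mice, by 0.107 on average (exact sign-flip test, p = 0.0391, adjusted p = 0.0781 over 2 tests). It was lower than Chr16 in 4 of 9 mice, and the mean difference of −0.041 did not pass (exact sign-flip test, p = 0.664, adjusted p = 0.664). Within the HCAs, Chr18 was 0.13 to 0.30 above own liver, Chr15 was 0.24 to 0.46 above it, and Chr16 ranged from −0.087 to 0.48. The combinations differed from tumor to tumor. HCC 6240-2 had Chr18 at 0.49 with Chr15 at 0.034 and Chr16 at −0.041, while HCC 6240-4 had Chr15 at 0.35 and Chr16 at 0.16 with Chr18 at −0.22. The Chr18 ratio of HCC 6240-4 was itself −0.016, and that of its own liver was 0.20. HCC 6602 had Chr16 at 0.65 and Chr15 at 0.36, with Chr18 at 0.13. HCC 6565 had none of these changes, with values of −0.035, −0.0023 and 0.056 on Chr18, Chr15 and Chr16. By size of gain over own liver, Chr18 ranked between 2 and 6 among the 19 autosomes in 8 tumors, 16 in HCC 6565 and 17 in HCC 6240-4.

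**Figure D5:**
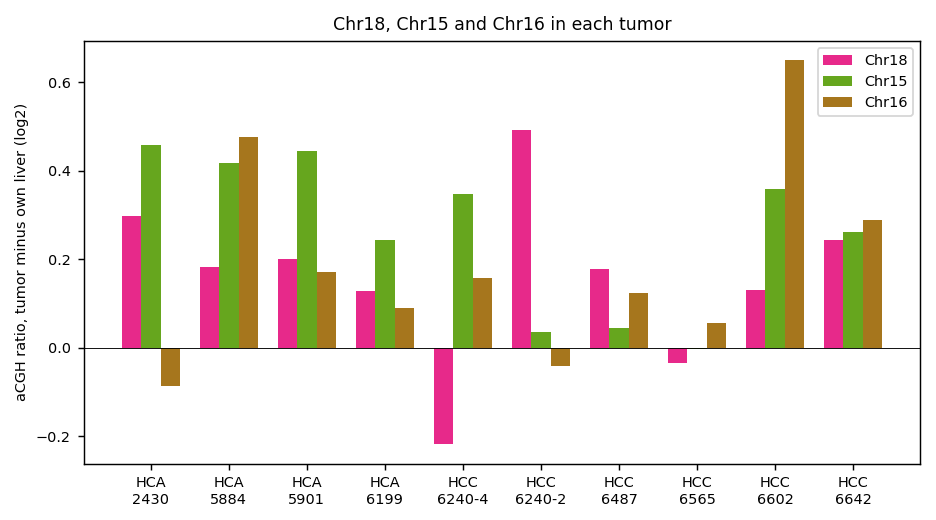
aCGH ratio of Chr18, Chr15 and Chr16 minus that of the own liver (log2, y axis) in each tumor, 1 bar per chromosome. Chr18 is above 0 in 8 of 10 tumors, reaches 0.49 in HCC 6240-2 and is lowest, at −0.22, in HCC 6240-4. The Chr18 ratio of HCC 6240-4 was −0.016, and that of its own liver was 0.20.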

How the data were processed

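Genomic DNA of 19 samples was hybridized to 19 Agilent mouse CGH arrays of 243301 spots, with the sample in Cy5 and control liver in Cy3. Per the file headers, Feature Extraction 10.5.1.1 gave the deposited log10 ratio of each spot, the processed and median signal intensities and spot flags, with linear dye normalization and no lowess. The series-wide deposited table carries identical log10 ratios to within 5e-10. Here, log10 ratios were converted to log2, outlier-flagged spots were dropped, saturated spots were kept, spots of a probe were averaged, and each array was centred on its autosomal median (−0.063 to 0.061 before centring). Bins needed 20 probes.

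Samples were grouped by the labelled diagnosis. Group means were tested by two-sided exact permutation with Benjamini-Hochberg adjustment over 19 autosomes, chromosomes within mice by exact sign-flip tests, and all 502 autosomal bins by limma 3.58.1 in R 4.3.3, with HCA, HCC and liver in 1 fit and adjustment over all bins. The threshold was 0.05. The permutation test and the limma fit were tested on simulated data, and the rule for breaks within a chromosome was not. Tumors and livers are paired by mouse, and over the autosomes their deviations from the group means correlated at −0.219 to 0.287, above 0.1 in 5 of 10 pairs. The blocked fit, which held all 19 samples, is given where it changes a call.

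Members, gene lists and comparisons were chosen with earlier results of these data known. Alternatives covered background correction, loess, centring, dim probes, bin width, blocks by mouse and scan day, female mice, averaged HCCs and each sample left out. The bins and steps named were the 5 highest and 5 lowest bins by mean difference between tumor and own liver, and each step of at least 0.2. The number of arrays limits the precision. The p-values set each result against regroupings of these samples or, in limma, against their spread. The main group tests ignore the pairing by mouse and count the HCCs of mouse 6240 as separate samples. Single genes were not analysed here.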

Additional observations from a re-analysis of the deposited data

Results flagged for a closer look

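The Chr18 ratio of the unaffected liver of mouse 6240, 0.203, lay far above the other livers, the next of which was 0.080. The unevenness of Chr18 in HCA 5884, 0.0857, lay far above that of the other HCAs, the next of which was 0.047. The distal minus proximal difference of Chr18 in HCC 6602, −0.0878, lay far below that of the other HCCs, the next of which was −0.0038. In each case the gap to the nearest sample of the group exceeded the 95% limit of Dixon's test. Chance marks about 1 in 20 groups, and 9 groups of values were examined.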

How the results depend on the processing

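The HCA gain of 0.181 kept its direction in all 24 alternatives but did not pass with normexp background correction (0.127, adjusted p = 0.0736), limma with scan day as a block (0.199, 0.0790), limma without one (0.181, 0.0695) or the paired fit with mouse as a replicate block (0.201, 0.156). Leaving out each sample gave 0.159 to 0.201. The HCC gain of 0.169 passed with the HCCs of mouse 6240 averaged (0.147), and leaving out each sample gave 0.0757 (without HCC 6240-2) to 0.218. HCC minus HCA turned positive with normexp (0.0265), without centring (0.0326) and in females (0.0399), and ranged from −0.105 to 0.0373 over samples left out. In unevenness, HCC minus HCA turned positive with normexp (0.00504) and scan day as a block (0.00107), and ranged from −0.0126 to 0.00368 over samples left out, while HCA minus liver ranged from 0.00713 to 0.0219. Distal minus proximal turned positive with normexp for HCA (0.00109) and ranged from −0.00763 to 0.0160 over samples left out for HCC. Called HCA bins numbered 0 with normexp, the mouse block and females, 7 of the 2 Mb bins, 18 by permutation, 18 by limma on HCA and liver alone (added after seeing the data), and 1 to 3 over samples left out. Called HCC bins numbered 0 with normexp, loess, either block, females, 10 Mb bins, permutation and limma on HCC and liver alone, 14 without centring, 15 with averaged HCCs and 0 to 17 over samples left out. HCC against HCA gave 1 bin with averaged HCCs and 0 to 2 over samples left out. The blocks changed no other call. The causes were not tested. Planned values of genes were not run, as no probe is paired with a gene.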
